A study of Mus musculus with 6 samples.

Results

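Complement is a cascade of serum proteins and membrane receptors of innate immunity. C1q, mannose-binding lectins and ficolins recognise damaged or marked surfaces, proteases then cleave C4 protein, C2 protein and C3 protein, and the fragments opsonise cells, attract leukocytes through receptors, or assemble into the membrane attack complex. The liver supplies most circulating components, while macrophages make C1q and properdin, fibroblasts make C1r, C1s and other components, and most cells carry regulators that stop the cascade on their own surface. In the infarcted heart, complement proteins deposit on dying cardiomyocytes and their fragments recruit myeloid cells.

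The 32 genes described here are complement components, receptors and regulators, taken by symbol from the 54532 genes listed in the deposited expression table. All 32 were found, each on 1 row, and each had the same start and end in GENCODE M21 (GRCm38). The study sequenced infarct and border tissue of hearts from C57BL/6 mice, 3 WT and 3 *Crlf2-/-* (TSLPR KO), on day 7 after permanent ligation of the left anterior descending coronary artery, and all 6 libraries therefore come from infarcted hearts. *Crlf2* encodes the receptor chain that binds thymic stromal lymphopoietin (TSLP). The study bought adult C57BL/6J males from a supplier and had the knockout made by another on the same background. It does not state the source of the WT mice that were sequenced. If they were the bought mice, supplier and genotype cannot be told apart. In such whole tissue, fewer cells of a type and less RNA per cell cannot be told apart.

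Levels are FPKM (fragments scaled to gene length and library size), as the authors deposited them, with a trimmed-mean scaling added here. Library totals over listed genes ran from 18508646 to 19682428 fragments. *Crlf2* had 917, 813 and 707 fragments in the WT libraries and 437, 651 and 667 in the *Crlf2-/-* libraries, so transcripts assigned to it were present in both groups. Its log2 fold change was -0.52 (standard error 0.17, limma adjusted p = 0.521). The label of the extraction protocol names retinas, where the tissue label and the study name heart. Retinal markers were not examined. The 8 cardiomyocyte markers were expressed in each library, with a summed level from 636.5 to 1881 FPKM. The 7 hepatocyte markers, which bear on liver RNA and not on that label, summed to at most 4.006 FPKM. Calls used the thresholds of the study, adjusted p no higher than 0.05 together with a log2 fold change of 0.5 or more in either direction, here from limma on log2(FPKM + 0.1) over the 15520 genes with enough fragments, and all fold changes below are on that scale, where the added 0.1 shrinks the fold change of low genes.

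The complement genes were expressed over a range of levels that reached from near 0 to over 500 FPKM. Of the 32, 5 had a mean of at least 100 FPKM over the 6 libraries, 10 lay between 10 and 100, 9 between 1 and 10, and 8 under 1. *Clu*, *C1qb*, *C1qa*, *Serping1* and *C1qc* made up between 76.67% and 85.08% of the summed FPKM of the 32 genes. Their means ranked 45, 46, 60, 119 and 148 among the 15520 genes tested. The summed level was 2390, 2435 and 2219 FPKM in the WT libraries and 2111, 2416 and 2300 FPKM in the *Crlf2-/-* libraries. The groups overlapped (exact permutation test, two-sided, p = 0.6, where 3 against 3 allow at best 0.1). In hearts of both genotypes C1q, clusterin and C1 inhibitor made up most of that sum.

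**Figure D1:**
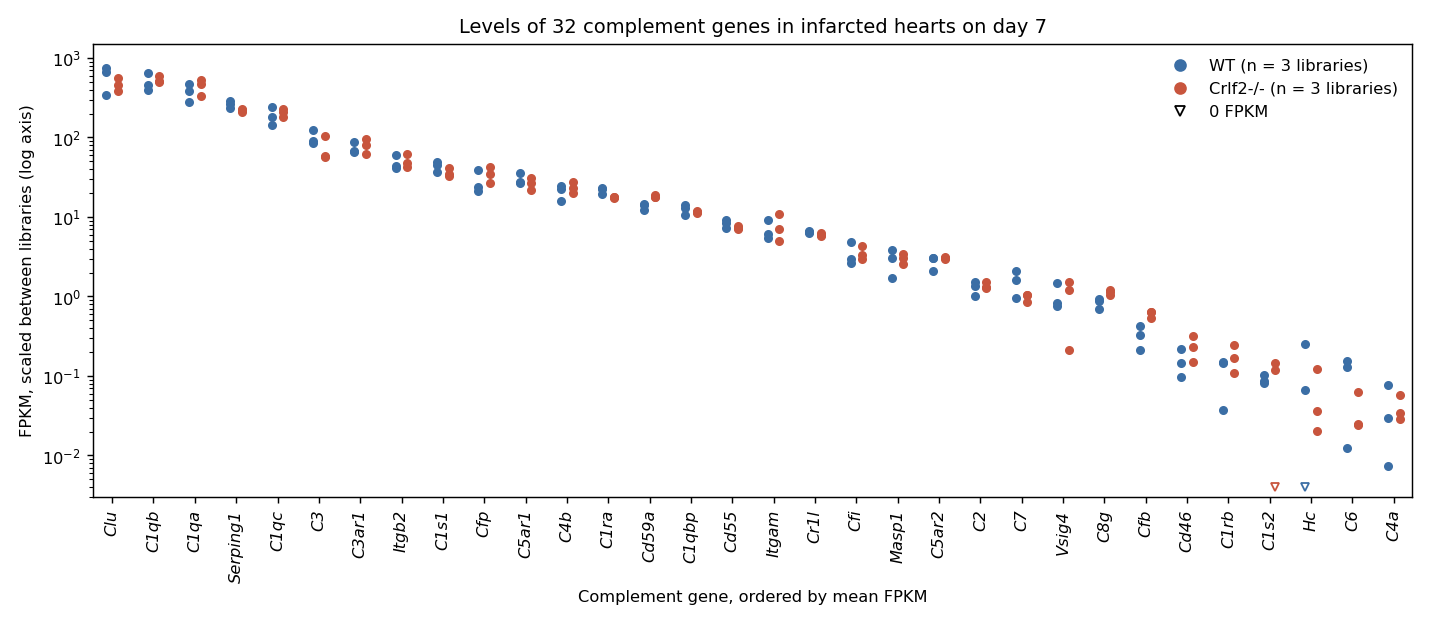
FPKM of the 32 complement genes in each library on a log axis, ordered by mean level, with WT in blue, *Crlf2-/-* in red and values of 0 as open triangles. The 5 genes at the left are above 100 FPKM on average and the 8 at the right are under 1, and in most columns the colours overlap.

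Enough fragments for the test, 10 or more in 3 or more libraries, were found for 27 of the 32 genes. *C1rb*, *C1s2*, *C4a*, *Hc* and *C6* were not tested, with at most 35 fragments in any library. By limma 0 of the 27 passed both thresholds, where 2 of all 15520 genes did (0.0129%), 1 higher (0.00644%) and 1 lower (0.00644%) in *Crlf2-/-* hearts. The study, which tested counts with DESeq2 at the same thresholds, reported far more genes. The 0 of 27 therefore holds for the test used here, which called few genes of any kind. An unadjusted p under 0.05 was found for *Cd59a* and *Cfb*, the 2 higher genes, and for *C1ra*, the 1 lower gene, and voom on fragments gave the same counts, 0 called, 2 higher and 1 lower. With a pseudocount of 1 FPKM, with 10 or more fragments required in every library and with the replicate block there were 3 higher and 1 lower. The shares over all genes are not given for voom or for these fits. In the limma fit on log2(FPKM + 0.1), *Cd59a*, *Cfb* and *C1ra* are 11.1% of 27. In that fit 6.58% of all genes tested had such a p, 3.22% higher and 3.36% lower. The libraries of the groups did not overlap for 5 genes, with *Cd59a*, *Cfb* and *C8g* higher and *C1ra* and *Serping1* lower in each *Crlf2-/-* library (18.5% of 27, against 11.7% of all genes, 5.37% higher and 6.37% lower). The median log2 fold change of the 27 was 0.09, that of all genes tested was -0.0042, and 16 of 27 lay above 0, where 49.1% of all genes did. A log2 fold change of 0.5 or more in size was found for 2 of the 27, *Cfb* and *C7*, and for 6.68% of all genes.

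**Figure D2:**
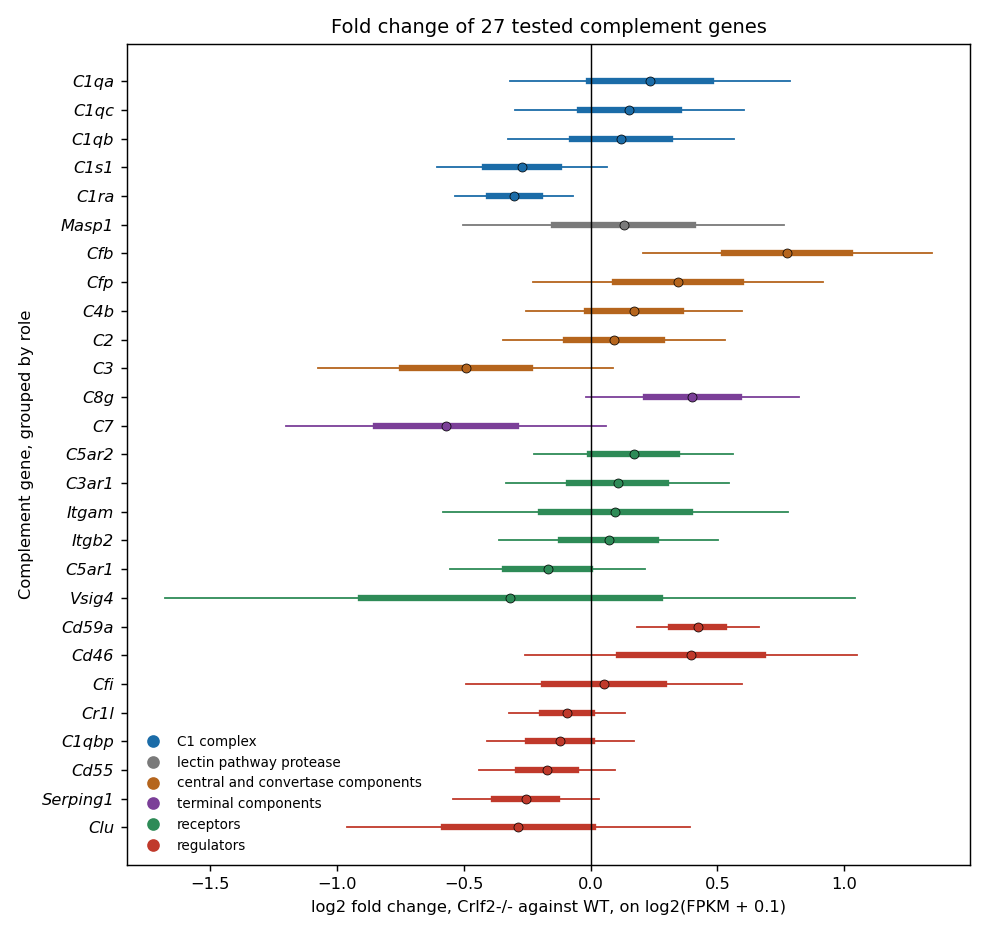
Log2 fold change of the 27 tested genes, *Crlf2-/-* against WT on log2(FPKM + 0.1), with thick bars for the standard error and thin bars for the 95% confidence interval from limma, coloured by role. The intervals of *Cfb* and *Cd59a* lie above 0 and that of *C1ra* below 0, before adjustment for the number of genes tested.

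*Cd59a* had the smallest p of these genes. It encodes the membrane anchored protein that blocks the last step of the membrane attack complex, and lies on the plus strand of chromosome 2 from 104095801 to 104115354 (ENSMUSG00000032679). Its level was 12.1, 14.5 and 14.0 FPKM in the WT libraries and 18.9, 17.7 and 17.8 FPKM in the *Crlf2-/-* libraries. The lowest *Crlf2-/-* library thus lay above the highest WT library. The means were 13.5 ± 1.25 FPKM (SD, n = 3) and 18.1 ± 0.668 FPKM (SD, n = 3). The log2 fold change was 0.42 (standard error 0.10, 95% confidence interval 0.18 to 0.66). In limma the unadjusted p was 0.00363 and the adjusted p = 0.324. It stayed between 0.35 and 0.47 when any 1 library was dropped, and its adjusted p was between 0.316 and 0.717 over all other settings. Its paralog *Cd59b* had 1.08 ± 0.612 in WT and 0.875 ± 0.204 in *Crlf2-/-* hearts (FPKM, SD, n = 3 each) and shared only 3.865% of the 50-base windows of *Cd59a* transcripts.

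The upstream sequence of *Cd59a* is shown because this gene separated the groups most clearly, and that of *C1qb* because it was the most abundant C1q gene. Both are the 150 bases before the RefSeq start (GRCm38.p6, 5′ to 3′ on the strand of the gene), and no listed gene overlaps either window. The windows lie at chr2:104095651-104095800 on the plus strand and at chr4:136886201-136886350 on the minus strand. Capitals mark GAGGAA, the core letters bound by the myeloid factor PU.1, searched on both strands with TTCCTC as its reverse complement.
Cd59a: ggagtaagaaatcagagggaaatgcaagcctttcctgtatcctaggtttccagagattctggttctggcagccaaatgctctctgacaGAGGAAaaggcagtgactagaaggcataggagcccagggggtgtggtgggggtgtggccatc
C1qb: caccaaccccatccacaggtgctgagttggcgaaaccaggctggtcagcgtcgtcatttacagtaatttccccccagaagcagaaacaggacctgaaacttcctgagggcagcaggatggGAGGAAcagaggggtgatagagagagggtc
The motif occurred 1 time in each window, beginning 62 bases before the start of *Cd59a* and 30 bases before that of *C1qb*. Of the 32851 RefSeq windows of this length, 14.5% held it. Such a match is a description of the letters and shows no binding. Of the 32 complement genes, 22 have a window in that table, and how many of these hold the motif is not given here. The pair shown therefore gives no share for complement genes.

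C1q, the recognition protein of the classical pathway, is built from 3 chains whose genes lie side by side on the minus strand of chromosome 4, between 136880129 and 136898803. *C1qb*, the most abundant, was 646, 463 and 391 FPKM in WT and 502, 588 and 509 FPKM in *Crlf2-/-* libraries. *C1qa* was 476, 380 and 283 FPKM in WT and 328, 534 and 475 FPKM in *Crlf2-/-* libraries. *C1qc* was 242, 179 and 145 FPKM in WT and 181, 229 and 208 FPKM in *Crlf2-/-* libraries. For each chain the groups overlapped, and WT replicate 1 and *Crlf2-/-* replicate 2 were the highest of their groups. The log2 fold changes were 0.12 (95% confidence interval -0.32 to 0.57) for *C1qb*, 0.23 (-0.32 to 0.79) for *C1qa* and 0.15 (-0.30 to 0.60) for *C1qc*, with limma adjusted p from 0.98 to 0.995. A difference of the size seen for *Cd59a* is within each of these intervals. That of *C1qa* ran from 0.038, when WT replicate 3 was left out, to 0.44, when *Crlf2-/-* replicate 1 was.

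The proportion of *C1qc* to *C1qb* varied less than the level of either. The ratio of *C1qc* to *C1qb* was 0.374, 0.388 and 0.370 in WT and 0.360, 0.390 and 0.409 in *Crlf2-/-* libraries, so its highest value was 1.14 times its lowest, where *C1qb* itself spanned 1.65 times. The ratio of *C1qa* to *C1qb* varied more, from 0.654 in *Crlf2-/-* replicate 1 to 0.934 in *Crlf2-/-* replicate 3, a span of 1.43 times. Neither ratio differed between the groups beyond its spread (p = 0.6 for both by two-sided exact permutation, adjusted p = 1 over the 5 ratios compared).

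The summed macrophage markers ranked the WT libraries as C1q did, but not the *Crlf2-/-* libraries. The 11 monocyte and macrophage markers summed to 3163, 2317 and 1730 FPKM in WT and 2676, 2179 and 1856 FPKM in *Crlf2-/-* libraries, and WT replicate 1 was highest and WT replicate 3 lowest for both these markers and the 3 chains within WT. Among the *Crlf2-/-* libraries replicate 1 had the highest marker sum and the lowest level of each of the 3 chains. *Lyz2* alone made up between 75.5% and 82% of each sum, and without it the other 10 markers summed to 570.1, 442.6 and 418.3 FPKM in WT and 539.8, 530.5 and 454.3 FPKM in *Crlf2-/-* libraries. Of the *Crlf2-/-* libraries, replicate 2 was highest for 6 of the 11 markers, as it was for C1q, and replicate 1 for 5. In the fit over all genes, 8 of the 11 markers had a log2 fold change above 0, with a median of 0.08, and 1 had an unadjusted p under 0.05, *Fcgr1*. Their part in the values of C1q was not tested.

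C1r and C1s are the proteases that C1q activates, and *C1ra* and *C1s1*, with their copies *C1rb* and *C1s2*, lie within 123.681 kb on chromosome 6. *C1ra* (ENSMUSG00000055172, from 124512405 to 124523443, plus strand) was 19.5, 22.6 and 22.8 FPKM in WT and 17.6, 17.1 and 17.8 FPKM in *Crlf2-/-* libraries. Each *Crlf2-/-* value lay below each WT value. The means were 21.7 ± 1.85 FPKM (SD, n = 3) and 17.5 ± 0.337 FPKM (SD, n = 3), with a log2 fold change of -0.30 (standard error 0.10, unadjusted p = 0.0177, adjusted p = 0.56 from limma).

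*C1s1* had its values partly in common between groups, with 36.4, 45.3 and 49.1 FPKM in WT and 40.9, 34.5 and 32.5 FPKM in *Crlf2-/-* libraries (log2 fold change -0.27, limma adjusted p = 0.851). The ratio of *C1ra* to *C1s1* lay between 0.431 and 0.547 in the 6 libraries and did not separate the groups (exact permutation test, two-sided, p = 0.9). The copies *C1rb* and *C1s2* had at most 14 and 9 fragments in any library. Of the 50-base windows of annotated *C1ra* transcripts, 48.02% also occur in *C1rb*, and 21.85% of those of *C1s1* occur in *C1s2*, so the authors' counting could have split or dropped fragments of these pairs. The values of *C1ra* and *C1s1* are uncertain to that extent in both groups.

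C1 inhibitor, encoded by *Serping1*, binds and inactivates C1r, C1s and the lectin pathway proteases, and was the most abundant inhibitor after clusterin. *Serping1* (ENSMUSG00000023224, chromosome 2, from 84765387 to 84775444) was 236, 260 and 290 FPKM in WT and 226, 224 and 208 FPKM in *Crlf2-/-* libraries. Every *Crlf2-/-* library was below every WT library, although the gap between WT replicate 1 and *Crlf2-/-* replicate 1 was small. The means were 262 ± 27.01 FPKM (SD, n = 3) and 219 ± 10.02 FPKM (SD, n = 3), and the log2 fold change was -0.26 (standard error 0.13, unadjusted p = 0.0747, adjusted p = 0.818 from limma). The lectin pathway protease gene *Masp1* had 1.69, 3.09 and 3.84 FPKM in WT and 2.56, 3.08 and 3.38 FPKM in *Crlf2-/-* libraries. The *Crlf2-/-* values of *Masp1* lay within the WT range.

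**Figure D3:**
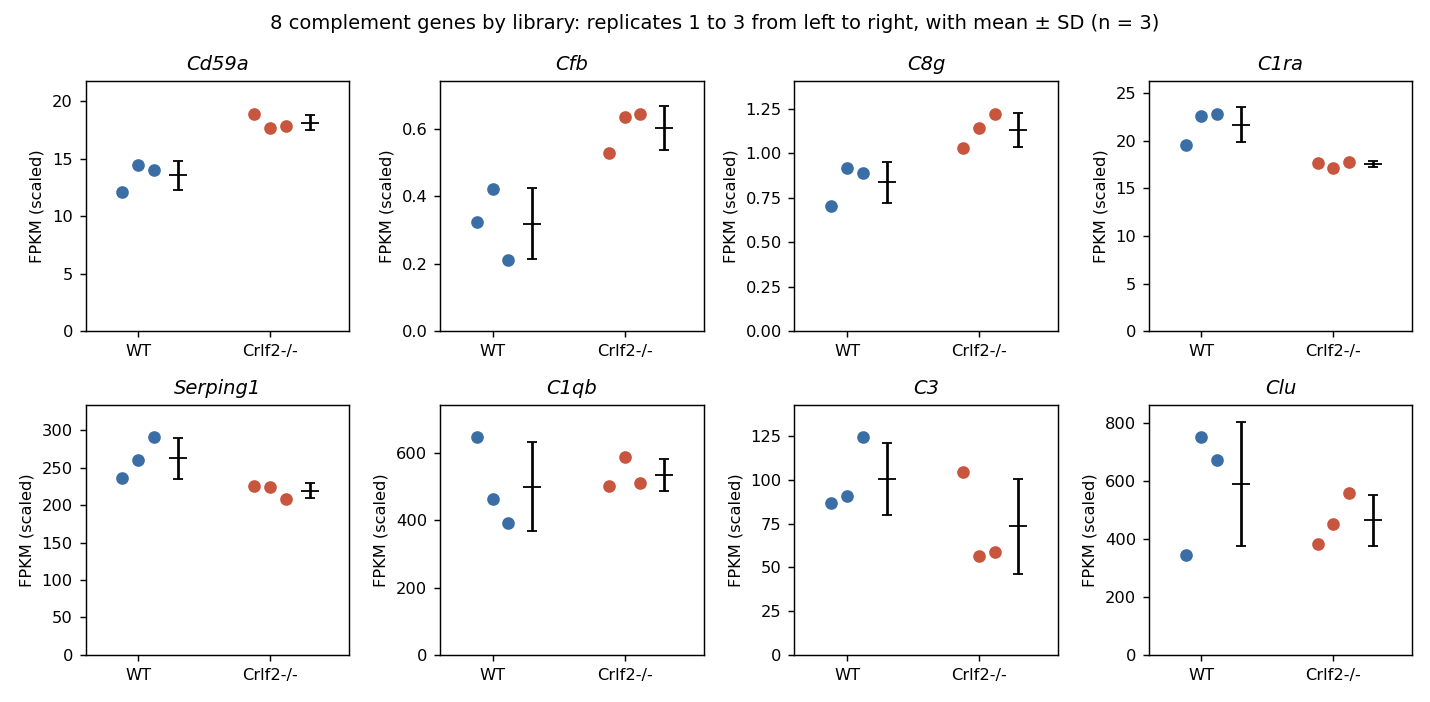
FPKM of 8 complement genes by library on linear axes from 0, with the points of replicates 1 to 3 from left to right and the mean ± SD (n = 3) beside them. *Cd59a*, *Cfb* and *C8g* have each *Crlf2-/-* point above each WT point, *C1ra* and *Serping1* have each below, and *C1qb*, *C3* and *Clu* overlap.

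The components at the centre of the cascade had fold changes in both directions. *C3*, which all 3 pathways cleave, was 86.4, 90.5 and 124 FPKM in WT and 105, 56.6 and 58.9 FPKM in *Crlf2-/-* libraries. *Crlf2-/-* replicate 1 was inside the WT range and the other two were below it. The log2 fold change was -0.49 (standard error 0.25, limma adjusted p = 0.829), and it ran from -0.78 without *Crlf2-/-* replicate 1 (limma adjusted p = 0.314) to -0.33 without WT replicate 3 (limma adjusted p = 0.836).

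*Cfb* encodes factor B, the protease subunit of the alternative pathway convertase, and had the largest positive fold change of the 27 genes. It lies on chromosome 17 from 34856374 to 34862518 (ENSMUSG00000090231), next to *C2* on the same strand. Its level was 0.325, 0.421 and 0.210 FPKM in WT and 0.529, 0.635 and 0.646 FPKM in *Crlf2-/-* libraries. All *Crlf2-/-* values were above all WT values, but the WT values rest on 21, 26 and 13 fragments and the *Crlf2-/-* values on 33, 42 and 41. The log2 fold change was 0.78 (standard error 0.25, unadjusted p = 0.0138, adjusted p = 0.518 from limma). With a pseudocount of 1 FPKM it was 0.28, since the gene is low.

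Properdin, encoded by *Cfp*, stabilises that convertase. *Cfp* was 39.0, 23.7 and 21.1 FPKM in WT and 42.0, 35.2 and 27.1 FPKM in *Crlf2-/-* libraries, and the groups overlapped through WT replicate 1 (log2 fold change 0.34, limma adjusted p = 0.934, and from 0.17 to 0.61 with 1 library left out). *C4b* averaged 21.02 ± 4.56 in WT and 23.5 ± 3.77 in *Crlf2-/-* hearts (FPKM, SD, n = 3 each). *C2*, whose protein pairs with a fragment of C4 protein in the classical convertase, was 1.31 ± 0.264 and 1.38 ± 0.130 FPKM (SD, n = 3 each). The groups overlapped for both genes. The copy *C4a* had at most 11 fragments in a library, and 34.57% of the 50-base windows of *C4b* transcripts also occur in *C4a*.

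Terminal components, which form the membrane attack complex, were at low levels. *Hc*, the gene of C5 protein, had from 0 to 35 fragments and *C6* from 1 to 12, and neither was tested. *C7* was 0.948, 1.61 and 2.12 FPKM in WT and 1.03, 0.846 and 1.03 FPKM in *Crlf2-/-* libraries (log2 fold change -0.57, limma adjusted p = 0.81). The groups overlapped because WT replicate 1 was as low as the *Crlf2-/-* libraries, and without it the log2 fold change was -0.87. Without WT replicate 3 it was -0.33, and with a pseudocount of 1 FPKM it was -0.35. *C8g*, which encodes the lipocalin chain of C8 protein, was 0.703, 0.919 and 0.887 FPKM in WT and 1.03, 1.14 and 1.22 FPKM in *Crlf2-/-* libraries. The groups did not overlap for *C8g*, with 24 to 30 fragments in WT and 34 to 41 in *Crlf2-/-* libraries (log2 fold change 0.40, unadjusted p = 0.0585, limma adjusted p = 0.792). With a pseudocount of 1 FPKM its log2 fold change was 0.22.

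Receptors for complement fragments mark myeloid cells, and the groups overlapped for each of the 6 receptor genes, where 11.7% of all genes tested did not overlap. *C3ar1*, the receptor of the anaphylatoxin C3a, was 88.7, 66.1 and 66.7 FPKM in WT and 97.0, 81.2 and 61.9 FPKM in *Crlf2-/-* libraries. *C5ar1*, the main receptor of C5a, was 35.5, 27.5 and 26.7 FPKM in WT and 31.3, 27.1 and 21.6 FPKM in *Crlf2-/-* libraries. Each gene overlapped between the groups, but their ratio did not. *C3ar1* was 2.5, 2.398 and 2.495 times *C5ar1* in WT and 3.098, 3.002 and 2.864 times *C5ar1* in *Crlf2-/-* libraries. The log2 ratio differed by 0.28 (two-sided exact permutation p = 0.1, which is the smallest for 3 against 3, and adjusted p = 0.5 over the 5 ratios), and by 0.25 to 0.31 with each library left out in turn.

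*C5ar2*, the second C5a receptor, was 2.74 ± 0.581 in WT and 3.05 ± 0.109 in *Crlf2-/-* hearts (FPKM, SD, n = 3 each). *Itgam* and *Itgb2* encode the subunits of complement receptor 3, which binds fragments of C3 protein on neutrophils, monocytes and macrophages. *Itgam* was 9.22, 6.05 and 5.47 FPKM in WT and 10.8, 7.05 and 4.92 FPKM in *Crlf2-/-* libraries, and *Itgb2* was 59.7, 43.4 and 40.8 FPKM in WT and 61.4, 47.3 and 42.3 FPKM in *Crlf2-/-* libraries. Within each group both subunits ranked the libraries alike, with replicate 1 highest. *Vsig4*, a phagocytic receptor of resident macrophages, varied most, with 0.766, 0.832 and 1.48 FPKM in WT and 1.53, 1.21 and 0.210 FPKM in *Crlf2-/-* libraries. Its direction depended on 1 library, since its log2 fold change was -0.32 with all 6 and 0.43 without *Crlf2-/-* replicate 3. The 7 neutrophil markers summed to 16.39 to 28.92 FPKM in WT and 18.41 to 23.99 FPKM in *Crlf2-/-* libraries, which overlapped.

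**Figure D4:**
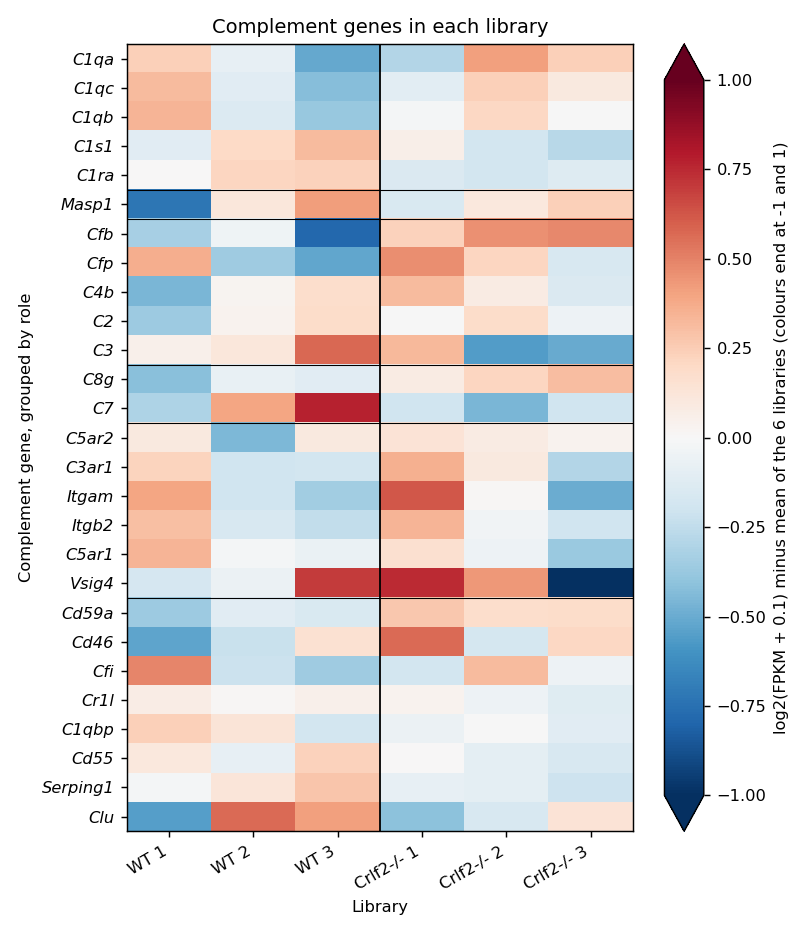
Log2(FPKM + 0.1) of the 27 tested genes in each library minus the mean of the 6 libraries, in red above and in blue below that mean, with genes grouped by role as in the plot of fold changes. WT replicate 1 shares high values with *Crlf2-/-* replicate 1 for *Cfp*, *Itgam* and *Itgb2* and stands apart from the other WT libraries for *Clu* and *Masp1*.

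Membrane regulators protect the body's own cells. Of these, *Cd55*, which speeds the decay of convertases, was 8.33 ± 0.920 in WT and 7.36 ± 0.420 in *Crlf2-/-* hearts (FPKM, SD, n = 3 each). *Cr1l*, the rodent cofactor also named Crry, was the steadiest of the 27 genes, at 6.44 ± 0.159 FPKM (SD, n = 3) and 6.03 ± 0.332 FPKM (SD, n = 3), and its highest library was 1.153 times its lowest. *Cd46*, which in mice is mostly confined to testis, was low at 0.153 ± 0.0597 and 0.234 ± 0.0852 FPKM (SD, n = 3 each). None of these passed an unadjusted p of 0.05, so that among the membrane regulators only *Cd59a* did, in the fit over all genes.

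Of the soluble regulators, *Clu* encodes clusterin, a chaperone that also binds the terminal complex. *Clu* was 345, 750 and 671 FPKM in WT and 381, 452 and 557 FPKM in *Crlf2-/-* libraries. WT replicate 1 was lowest of all 6 and the other WT libraries were the highest. Its log2 fold change was -0.28 (standard error 0.29, limma adjusted p = 0.981) with all libraries. It was -0.63 without WT replicate 1 and only -0.071 without WT replicate 2, -0.15 without WT replicate 3 and -0.15 without *Crlf2-/-* replicate 1, so its size rests on single libraries. *Cfi*, which encodes the protease that inactivates fragments of C3 protein and C4 protein, was 3.46 ± 1.19 in WT and 3.51 ± 0.674 in *Crlf2-/-* hearts (FPKM, SD, n = 3 each). *C1qbp*, a mostly mitochondrial protein that can bind C1q, was 12.6 ± 1.87 FPKM (SD, n = 3) and 11.5 ± 0.411 FPKM (SD, n = 3).

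The levels of cell type markers are given beside these values. The 8 cardiomyocyte markers had log2 fold changes below 0 in 8 of 8 cases, with a median of -0.96, and summed to 999.9, 1881 and 1693 FPKM in WT and 776.8, 636.5 and 1287 FPKM in *Crlf2-/-* libraries. WT replicate 1, the WT library with the lowest sum, was the lowest WT library for 13 of the 27 tested complement genes and the highest for 11. *Clu*, *C7* and *Masp1* were among the 13. Of the *Crlf2-/-* libraries, replicate 2 had the lowest sum and the least *C7*, but *Clu* and *Masp1* were lowest in replicate 1. The 9 fibroblast markers had a median of -0.10 and sums of 6607 to 7732 FPKM in WT and 7632 to 7838 FPKM in *Crlf2-/-* libraries, which overlapped. Most of that sum was *Col1a1*, *Col1a2*, *Col3a1* and *Postn*. By gene, *Col1a1* was higher (log2 fold change 0.25) and *Tcf21* lower (-0.44) in each *Crlf2-/-* library, and the other fibroblast markers overlapped. The 6 endothelial markers summed to 135.3 to 157.3 FPKM in WT and 125.8 to 134.8 FPKM in *Crlf2-/-* libraries, the 4 smooth muscle markers to 521.4 to 654.0 and 683.0 to 755.9 FPKM, the 6 T cell markers to 7.369 to 12.02 and 3.526 to 4.951 FPKM, and the 5 red blood cell markers to 225.6 to 366.3 and 85.35 to 160.8 FPKM. These last 4 sums did not overlap between the groups. The endothelial sums parted only narrowly, at 134.8 against 135.3 FPKM. Singly, *Pecam1* and *Tek* were lower in each *Crlf2-/-* library, while *Cdh5*, *Kdr*, *Tie1* and *Emcn* overlapped. The smooth muscle sum was mostly *Acta2*, at 494 to 723 FPKM. *Myh11* (log2 fold change -0.19), *Tagln* and *Cnn1* overlapped between the groups. The part of cell composition in the values of the complement genes was not tested. The 4 B cell markers summed to 5.284 to 7.246 and 4.232 to 8.529 FPKM, and the 4 mesothelial markers to 6.828 to 14.35 and 9.026 to 24.18 FPKM, and both overlapped.

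A list of 30 other complement genes covered lectins, pentraxins, soluble regulators, terminal components and further receptors. Of these 30, 14 had enough fragments to be tested, 0 were called by limma, and 1 (7.14%) had an unadjusted p under 0.05, a share near the 6.58% of all genes tested. The 16 that were not tested, among them *Mbl1*, *Mbl2*, *Masp2*, *C8a*, *C8b* and *C9*, had at most 0.351 FPKM in any library, and 5 of these were at 0 in each library. Transcripts of mannose-binding lectins, MASP-2, the other C8 chains and C9 protein were thus not detectable or near 0 at this depth. The gene with the smallest p was *Colec11*, a soluble collectin, which averaged 12.6 ± 0.493 in WT and 9.47 ± 2.59 in *Crlf2-/-* hearts (FPKM, SD, n = 3 each) (log2 fold change -0.44, unadjusted p = 0.0359, adjusted p = 0.704 from limma). The groups of *Colec11* overlapped.

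For *Cd93*, *Colec12* and *Cfd*, 3 of the most abundant genes of that list, the groups overlapped. *Cd93*, an endothelial and myeloid lectin once taken for a C1q receptor, was 47.9 ± 7.68 in WT and 48.8 ± 7.24 in *Crlf2-/-* hearts (FPKM, SD, n = 3 each), and *Colec12*, a scavenger receptor, was 22.8 ± 0.895 in WT and 22.6 ± 3.64 in *Crlf2-/-* hearts (FPKM, SD, n = 3 each). *Cfd*, which encodes factor D, is known as adipsin from fat cells and varied most between libraries of one genotype. *Cfd* was 5.12, 55.4 and 8.57 FPKM in WT and 1.03, 0.926 and 25.5 FPKM in *Crlf2-/-* libraries, and the SD of each group exceeded the difference of their means.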

How the data were processed

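RNA-seq of infarcted mouse hearts was analysed for 3 WT and 3 *Crlf2-/-* libraries, grouped by sample title. The authors trimmed reads with fastp, aligned them with HISAT2 2.0.5 (per the labels), counted fragments with featureCounts and deposited FPKM per gene and library. The submitters' notes name mm10 and hg38 without a role. All listed positions of the complement genes equal those of GENCODE M21. FPKM times gene length gave whole fragments for 100% of nonzero values (tolerance 0.02 fragments), and these served for filters and scaling. The table held 0 columns of other samples.

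Here FPKM were scaled by a trimmed mean of M values (30% of M, 5% of A), and limma 3.58.1 in R 4.3.3 (lmFit, then eBayes with its trend and robust options) was fitted to log2(FPKM + 0.1) over the 15520 genes that reached 10 fragments in 3 or more libraries and 15 over all libraries, with Benjamini-Hochberg adjustment. The study tested counts with DESeq2, which was not run here. The fragments worked out from the FPKM were tested with voom as an alternative. Ratios and sums were tested by exact permutation with Python 3.11.15 and scipy 1.17.1. P-values measure the spread between these libraries, which may be partly technical.

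The complement genes, lists and alternatives were chosen with earlier results of these data known. All 32 complement genes may be named. Of the other complement genes, those with an unadjusted p under 0.05 and the 5 most abundant were to be named, of which 1 is not reported here. *Cd59b* and the examples of undetected genes were named in addition, after their values were seen. For genes near 10 fragments, counting error alone makes values imprecise. Alternatives were other scalings, pseudocounts of 1 and 0.01, no filter, at least 10 fragments in every library, the replicate number as a block, voom on fragments, and leaving out each library.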

Additional observations from a re-analysis of the deposited data

How the results depend on the processing

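With every alternative tried, 0 of the complement genes passed both thresholds. Of 377 comparisons of a complement gene's fold change with an alternative, 362 kept their sign and 15 did not, all 15 from leaving out 1 library. The number of genes called among all genes was 2 and became 6 with no filter, 1 with at least 10 fragments in every library, 4 with the replicate block and 1 to 14 with each library left out (14 without *Crlf2-/-* replicate 1, 8 without WT replicate 3).

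With each library left out in turn, complement genes at an unadjusted p under 0.05 numbered 2 to 3 higher and 0 to 5 lower. Those whose groups did not overlap numbered 3 to 7 higher and 2 to 6 lower, which fewer libraries make more likely. The shares over all genes are not given for these settings, so the counts show nothing particular to complement. The highest counts, 5 lower by p and 7 higher by no overlap, came without WT replicate 1, and 6 lower by no overlap without *Crlf2-/-* replicate 1. *C1ra* lost its unadjusted p under 0.05 when WT replicate 2, WT replicate 3 or *Crlf2-/-* replicate 2 was left out. The median log2 fold change was -0.043 to 0.15 for the complement genes (below 0 without WT replicate 1, WT replicate 3 or *Crlf2-/-* replicate 1) and -0.33 to -0.018 for the other complement genes. The log2 difference of the summed level was -0.090 to 0.0069, that of the *C1qa* to *C1qb* ratio 0.021 (without *Crlf2-/-* replicate 3) to 0.28 (without *Crlf2-/-* replicate 1), of *C1qc* to *C1qb* -0.011 to 0.082, of *C1ra* to *C1s1* -0.11 to 0.061, and of *Itgam* to *Itgb2* -0.11 to 0.18.

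Single genes that changed sign ranged from -0.040 to 0.32 for *C1qb*, -0.022 to 0.35 for *C1qc*, -0.043 to 0.29 for *C3ar1*, -0.080 to 0.24 for *Itgb2*, -0.19 to 0.37 for *Itgam*, -0.015 to 0.30 for *C4b*, -0.20 to 0.37 for *Masp1*, -0.013 to 0.26 for *C5ar2*, -0.11 to 0.31 for *Cfi*, -0.065 to 0.21 for *C2* and -0.77 to 0.43 for *Vsig4*. The cause was not tested.

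WT and *Crlf2-/-* libraries carry the same replicate numbers, but deviations from the group means had a correlation of only -0.016 for number 1, 0.115 for number 2 and 0.12 for number 3. They were therefore treated as unpaired, and with the replicate block 0 complement genes were called. Low genes such as *Cfb*, *C8g*, *C7*, *Vsig4* and *Cd46* have at most 124 fragments per library, which limits their precision.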
